A study of Homo sapiens with 6 samples.

Results

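The genes described here are 8 chemokines that draw monocytes, lymphocytes and dendritic cells: CCL2, CCL5, CCL7, CCL20, CX3CL1, CXCL12, CXCL14 and CXCL16. They were chosen by name, with earlier results of these data known, from the CC chemokines and the other chemokines outside the neutrophil-attracting CXC group. They are not all of these classes, and they are 8 of the 60671 genes in the deposited table. The table names 7 of them, and CCL5 was found by its Ensembl identifier, ENSG00000271503. The libraries came from U87, an established human glioblastoma cell line grown in culture. The rutaecarpine group (n = 3) was exposed for 48 h to 100 μM rutaecarpine, a plant alkaloid tested in the study as an activator of the aryl hydrocarbon receptor (AhR). The control group (n = 3) received the solvent, 0.1% DMSO, for the same time, which the rutaecarpine libraries carried too, and dosing was in serum-free medium. The labels do not say whether the libraries of a group came from separate cultures, so the p values measure the spread between libraries, which may be technical.

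Chemokines are small secreted proteins that bind to the extracellular matrix and guide cells toward their source through receptors coupled to inhibitory G proteins. The families are named by the spacing of their first cysteines, which are adjacent in CC chemokines, separated by a single residue in CXC chemokines and more widely spaced in CX3CL1. In glioblastoma, CCL2 and CCL7 are known as attractants of monocytes and microglia, CCL20 of dendritic cells and T cells that carry CCR6, and CXCL12 as a ligand of the receptors CXCR4 and ACKR3. CX3CL1 and CXCL16 are made as membrane proteins and released by the proteases ADAM10 and ADAM17.

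In brief, CCL20 rose about 9.03-fold by the ratio of mean TPM and CXCL14 fell to a level 4.88-fold lower, while CCL2, the most abundant of the 8, was 1.34-fold higher without passing the test. TPM, a read share scaled to gene length, can be compared between genes of a library. CCL7 was 2.37-fold higher and also did not pass. CXCL12, CCL5, CXCL16 and CX3CL1 were at or near the floor of the measurement and were not tested.

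CCL20 and CXCL14 were the genes that passed, so parts of their promoters are shown first. RefSeq promoter windows on GRCh38.p14 were matched for 4 of the 8 genes, CCL20, CXCL14, CXCL12 and CCL7. The 250 bases before each RefSeq start were searched on both strands for the AhR-bound DRE core (GCGTG), the AP-1 site (TGANTCA) and the TATA box (TATAAA). A loose form of the kappaB consensus bound by NF-kappaB was also searched, namely GGG, a purine, any 4 bases and CC. Each kappaB match given here is to this loose form and need not meet a stricter consensus. Of 35116 promoters of the same length, 32.2% held the DRE core and 37.0% the loose kappaB form, so single matches of this pair are common. The AP-1 site was held by 6.57% and the TATA box by 10.7%. In GENCODE release 29 the CCL20 window lies inside the gene, whose first annotated start is farther upstream, and overlaps a CCL20 exon by 20 bp. The sequence printed here leaves out the bases in that exon. It covers positions -250 to -21 from the RefSeq start (chr2:227813592-227813821, plus strand), with matches to the motifs in capitals.
CCL20 promoter: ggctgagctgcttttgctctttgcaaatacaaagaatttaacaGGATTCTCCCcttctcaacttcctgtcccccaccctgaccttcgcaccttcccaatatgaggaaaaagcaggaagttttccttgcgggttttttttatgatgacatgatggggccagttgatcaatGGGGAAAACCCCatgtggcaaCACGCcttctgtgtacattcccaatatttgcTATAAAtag
In the CCL20 window, 3 overlapping kappaB matches spanned positions -81 to -70 and another lay at -207 to -198. A further kappaB match, at -21 to -12, starts at the last base printed, which is left in lower case. The single DRE core was on the minus strand at -60 to -56, next to the overlapping kappaB matches, and the TATA box lay at -29 to -24.

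The CXCL14 window held 3 DRE cores and 1 AP-1 site, with no match to the kappaB consensus or the TATA box. In GENCODE release 29 all 250 bases of it lie in the first exon of the longest CXCL14 transcript, which starts farther upstream, so only the stretches around the AP-1 site (chr5:135579061-135579089) and around the DRE cores nearest the start (chr5:135579172-135579199) are shown, both on the minus strand with the motifs in capitals.
CXCL14 AP-1 stretch: tctcagTGAGTCAccgagtggttctgcat
CXCL14 DRE stretch: gtGCGTGtgcgcGCGTGgctccgggtgt
The AP-1 site lay at -92 to -86 and the DRE cores at -244 to -240, -206 to -202 and -196 to -192. The CXCL12 window, which also lies inside its annotated gene, held 3 kappaB matches and none of the other motifs. That of CCL7 held 1 AP-1 site (TGATTCA) and 1 TATA box. The study searched for longer DRE patterns, CACGCNA and TNGCGTG, and none of the DRE cores found here completes either of them. A match describes the letters in the window and shows neither binding nor its effect.

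Depth cannot be read from TPM, so no counting error is given for any value. Control replicate 3 stood apart, with a median over tested genes of 3.56 on the log2(TPM + 1) scale, against 3.81 to 4.00 in the other 5 libraries, and results that rest on this library are given without it. The culture matched its label in part. Vimentin (VIM) was at 4430 to 7968 TPM, the glial filament gene GFAP at 3.48 to 5.41 TPM, S100B at no more than 0.25 TPM, and CDKN2A, CDKN2B and MTAP, a region of chromosome 9 known to be lost in U87, at no more than 0.06 TPM. VIM fell from 7498 ± 499 to 4857 ± 381 TPM (SD, n = 3) with an adjusted p of 0.00894 by limma, and an adjusted p of 0.0526 without rutaecarpine replicate 3. NES also fell (log2 fold change -0.53, adjusted p = 0.0491 by limma). Of the fits that left out a library, NES passed only in that without control replicate 3. CD44 (log2 fold change 0.25) and GFAP (0.18) did not pass. Of the 12 leukocyte and endothelial markers, CSF1R stood at 5.98 to 8.33 TPM and the other 11 at no more than 1.33 TPM. Their sum was 8.94 to 10.0 TPM in the control group and 7.93 to 9.97 TPM after rutaecarpine, the defining leukocyte gene PTPRC was at no more than 0.03 TPM, and MS4A1 and HBB were listed at 0 throughout. PECAM1 alone of these moved with the groups, from 0.54 to 0.71 TPM to 0.89 to 1.33 TPM. Its part in the results below was not tested.

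For the comparison, the 14377 genes that reached 1 TPM in 3 or more libraries were tested with limma on log2(TPM + 1). A gene passed at an adjusted p of at most 0.05 and was a DEG if its absolute log2 fold change was also above 1. Of the 8 chemokines, 4 entered the test, and 2 of them passed, 1 in each direction, both as DEGs. Among all genes tested, 4.60% rose and 4.68% fell at that p, 2.01% were up-regulated DEGs and 1.50% down-regulated DEGs. The libraries of the groups did not overlap for 2 of the 4, against 33.3% of all genes tested. The median log2 fold change was 0.56 over these 4 genes and 0.08 over all genes tested. The 4 include CCL7, which entered the test through the group in which it was higher, so the medians are not a like comparison. With 3 libraries against 3, an exact permutation test of a single gene cannot give a p below 0.1, which was the value for CCL20 and CXCL14.

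CCL20, the ligand of CCR6, is encoded on chromosome 2 (chr2:227805739-227817564, plus strand, GRCh38). Its TPM was 6.68, 6.98 and 4.99 in control replicates 1, 2 and 3 and 51.5, 60.4 and 56.5 in rutaecarpine replicates 1, 2 and 3. Every rutaecarpine library lay far above every control library, and the spread within each group was small against that gap. The mean went from 6.22 ± 1.07 to 56.2 ± 4.46 TPM (SD, n = 3). The log2 fold change was 2.99 (standard error 0.15, 95% confidence interval 2.64 to 3.35), with an adjusted p of 0.000176 by limma with Benjamini-Hochberg adjustment. The position of the gene among the tested genes also changed. In the control group 32.0% of them had a lower mean TPM than CCL20, and after rutaecarpine 82.1% did.

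CXCL14, a chemokine found in normal epithelia and brain whose receptor is not settled, is encoded on chromosome 5 (chr5:135570679-135579279, minus strand). Its TPM was 7.42, 7.68 and 8.96 in the control libraries and 1.57, 1.43 and 1.93 after rutaecarpine. The groups did not overlap, and all 3 rutaecarpine libraries were under 2 TPM. The mean went from 8.02 ± 0.82 to 1.64 ± 0.26 TPM (SD, n = 3), or -1.77 as a log2 fold change (standard error 0.17, 95% confidence interval -2.17 to -1.38, adjusted p = 0.00146 by limma). The antisense gene AC034206.1, which spans CXCL14 on the other strand, was listed at 0 in all 6 libraries, and SLC25A48, which overlaps it by 78 bp, stood at no more than 0.20 TPM.

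**Figure D1:**
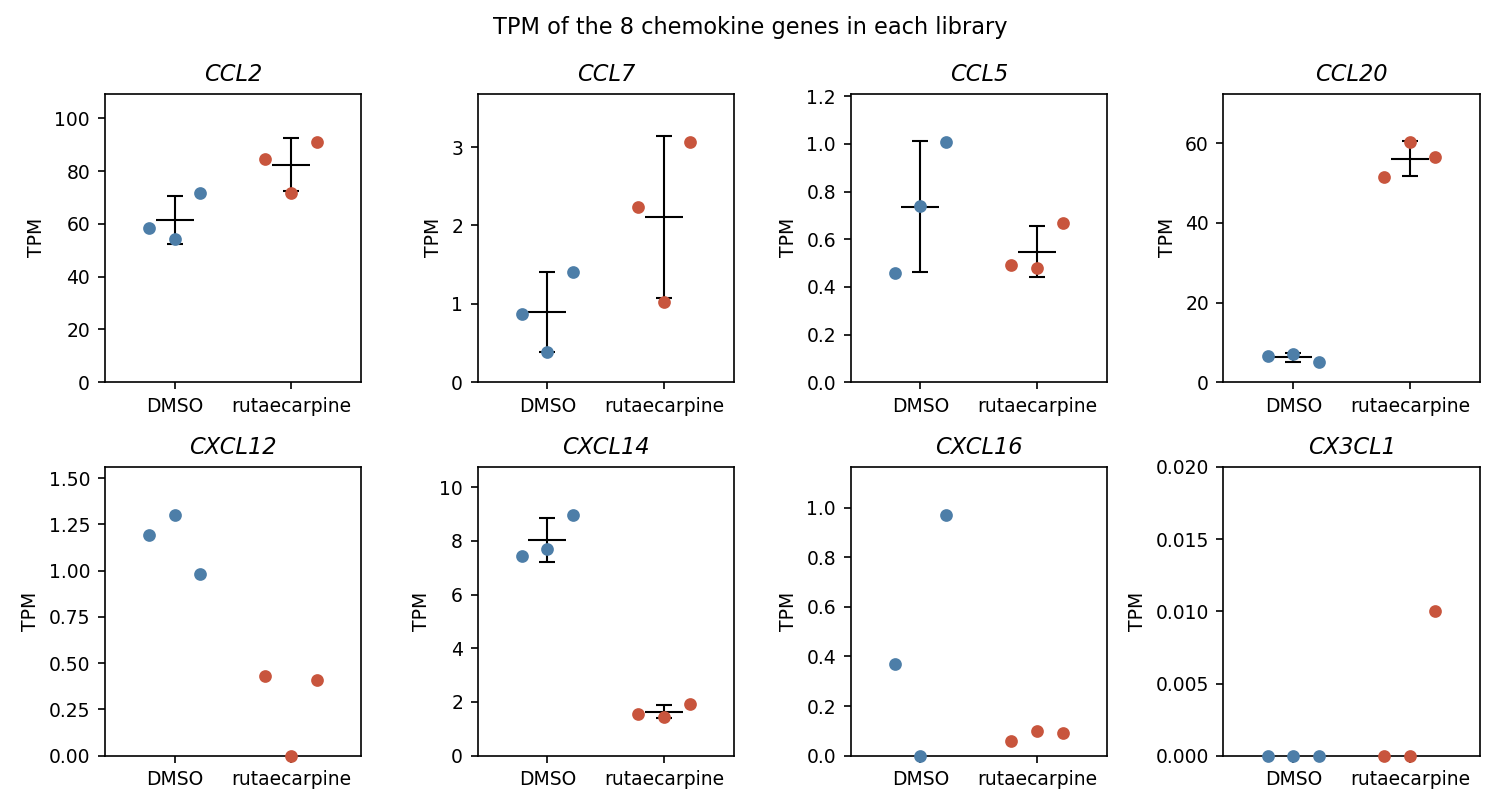
TPM (vertical axes, linear, each from 0) of the 8 genes in the control (blue) and rutaecarpine (red) libraries, replicates 1, 2 and 3 from left to right within each group. Black bars mark the mean and SD of each group (n = 3) and are left out for CXCL12, CXCL16 and CX3CL1, which were listed at 0 in at least 1 library; the rutaecarpine points of CCL20 (51.5 to 60.4 TPM) lie far above its control points, and those of CXCL14 (1.43 to 1.93 TPM) far below.

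CCL2, the main attractant of monocytes through CCR2, was the most abundant of the 8 genes in both groups. It lies on chromosome 17 (chr17:34255218-34257203, plus strand). Its TPM was 58.3, 54.3 and 71.7 in the control libraries and 84.6, 71.6 and 91.2 after rutaecarpine. The groups met at control replicate 3 and rutaecarpine replicate 2, which differed by less than 0.1 TPM, and were otherwise apart. The log2 fold change was 0.42 (standard error 0.14, 95% confidence interval 0.09 to 0.75), with an adjusted p of 0.119 by limma. Without control replicate 3 it was 0.54 with an adjusted p of 0.0157 by limma, so the call rests on that library. Bulk libraries cannot tell a change in RNA per cell from a change in how many cells express a gene.

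CCL7, a monocyte attractant that binds CCR1, CCR2 and CCR3, is the neighbour of CCL2 and starts 13017 bp after it (chr17:34270221-34272242, plus strand). Its TPM was 0.87, 0.39 and 1.41 in the control libraries and 2.24, 1.02 and 3.07 after rutaecarpine. Control replicate 3 lay above rutaecarpine replicate 2, so the groups overlapped. The log2 fold change was 0.70 (standard error 0.32, 95% confidence interval -0.06 to 1.45) with an adjusted p of 0.242 by limma. All 3 rutaecarpine libraries but only 1 control library reached 1 TPM, so the gene entered the test through the group in which it was higher. CCL2 TPM was 50.8 to 139 times that of CCL7 in the control libraries and 29.7 to 70.2 times after rutaecarpine, ranges that overlap.
CCL7 and CCL2 had the same order of replicates in each group, over only 3 libraries per group. CXCL14 and CCL5 were also highest in replicate 3 of each group and lowest in replicate 2 after rutaecarpine. The order after rutaecarpine is therefore not particular to this pair, and neither is the highest place in the control group. In the control group both were highest in replicate 3 and lowest in replicate 2, and after rutaecarpine both were again highest in replicate 3 and lowest in replicate 2.

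CCL5 (RANTES), a ligand of CCR1 and CCR3, lies 1599248 bp farther along chromosome 17 (chr17:35871491-35880793, minus strand). Its TPM was 0.46, 0.74 and 1.01 in the control libraries and 0.49, 0.48 and 0.67 after rutaecarpine, so the groups overlapped. Only 1 library reached 1 TPM and the gene was not tested. Without a filter on low values, a log2 fold change of -0.16 was found, with a standard error of 0.15 and an adjusted p of 0.66 by limma. The antisense gene AC015849.1, which overlaps CCL5, was listed at 0.

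CXCL12 (SDF-1), the ligand of CXCR4 and ACKR3, lies on chromosome 10 (chr10:44370165-44386493, minus strand). Its TPM was 1.19, 1.30 and 0.98 in the control libraries and 0.43, 0.41 and a listed 0 in rutaecarpine replicates 1, 3 and 2. All control libraries lay above all rutaecarpine libraries. With only 2 libraries at 1 TPM or more, the gene did not enter the test. Without a filter on low values the log2 fold change was -0.77 (standard error 0.18), and its adjusted p of 0.0984 by limma did not pass.
The membrane-bound chemokines were hardly listed. CXCL16, the ligand of CXCR6 (chr17:4733526-4739922, minus strand), was at 0.37, 0 and 0.97 TPM in the control libraries and at 0.06, 0.10 and 0.09 TPM after rutaecarpine. The control libraries spanned the whole range of the gene and enclosed the rutaecarpine libraries. MED11, on the opposite strand, overlaps CXCL16 by 85 bp and stood at 19.1 to 25.6 TPM, and whether the counting used strand is not given in the sources used here. CX3CL1 (fractalkine, chr16:57372458-57385048, plus strand) was listed at 0 in 5 libraries and at 0.01 TPM in rutaecarpine replicate 3. The adjusted p without a filter was 0.577 for CXCL16 and 0.942 for CX3CL1 by limma.

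The order of the 8 genes by mean TPM differed between the groups. In the control group it was CCL2, CXCL14, CCL20, CXCL12, CCL7, CCL5, CXCL16 and CX3CL1. The first 4 of these were separated without overlap of their libraries, while each gene from CXCL12 on overlapped the next. After rutaecarpine the order was CCL2, CCL20, CCL7, CXCL14, CCL5, CXCL12, CXCL16 and CX3CL1, and neighbours overlapped only between CCL7 and CXCL14 and between CXCL12 and CXCL16. CXCL14 exceeded CCL20 in all 3 control libraries, with 1.10 to 1.80 times its TPM. After rutaecarpine CCL20 had 29.3 to 42.3 times the TPM of CXCL14.
The summed TPM of the 8 genes was 71.4 to 90.0 in the control libraries and 135 to 154 after rutaecarpine. CCL2 made up 76.0 to 79.6% of it in the control group and 53.0 to 60.0% after rutaecarpine. The share of CCL20 was 5.55 to 9.78% and then 36.6 to 44.7%, and that of CXCL14 was 9.85 to 10.8% and then 1.06 to 1.25%. CCL2 had 7.77 to 14.4 times the TPM of CCL20 in the control libraries and 1.18 to 1.64 times after rutaecarpine.

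**Figure D2:**
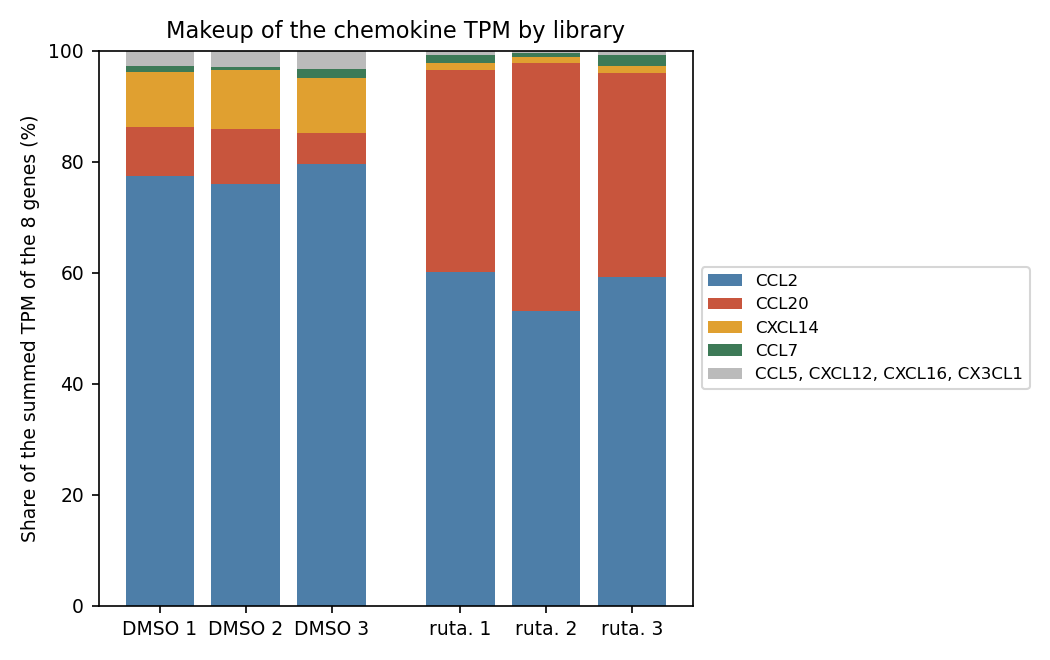
Share (vertical axis, percent) of each gene in the summed TPM of the 8 chemokines, 1 bar for each of the 3 control (DMSO) and 3 rutaecarpine (ruta.) libraries. CCL2 and CCL20 fill nearly all of each rutaecarpine bar, while CXCL14 goes from 9.85 to 10.8% of the control bars to 1.06 to 1.25%.

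The other chemokines of these classes were mostly silent. These were 24 CC and C chemokines, of which 12 were listed at 0 in all 6 libraries, and 7 CXC chemokines without the neutrophil-type motif, of which 4 were, among them CCL22, CXCL9 and CXCL13, named as examples after their values were seen. None of the 7 CXC genes exceeded 0.16 TPM, including CXCL10 and CXCL11, which interferon induces. A mean of 1 TPM in either group was reached by 4 of them, all CC chemokines, and 3 of these entered the test. None of the 3 passed by limma. The groups did not overlap for all 3, against 33.3% of all genes tested, and all 3 had an unadjusted p under 0.05, against 24.4%.
CCL3, a macrophage inflammatory protein that binds CCR1, had a TPM of 38.3, 36.4 and 40.8 in the control libraries and 46.3, 56.8 and 49.4 after rutaecarpine. This was a log2 fold change of 0.39 with a standard error of 0.11 and an adjusted p of 0.0774 by limma, and of 0.0282 without control replicate 3. CCL4, a relative of CCL3, differed the other way, at 7.94, 4.09 and 5.58 TPM in the control libraries and 3.06, 3.75 and 2.34 TPM after rutaecarpine. The log2 fold change of CCL4 was -0.74, with a standard error of 0.25 and an adjusted p of 0.131 by limma. CCL3L3, named CCL3L1 in GENCODE release 29, had a log2 fold change of 0.75 (adjusted p = 0.135 by limma). As a near-identical copy of CCL3 it shares reads with it, so the values of both are uncertain. CCL26, which attracts eosinophils, had 0.77, 2.64 and 1.16 TPM in the control libraries and 0.66, 0.47 and 0.50 TPM after rutaecarpine, and was not tested.

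The receptors for the 8 chemokines were examined next, since glioblastoma cells can respond to their own ligands. Of 15 signalling receptors, 3 reached a mean of 1 TPM in either group and 5 were listed at 0 in all 6 libraries. CXCR4, the signalling receptor of CXCL12, was among those listed at 0. CCR6, the receptor of CCL20, was at no more than 0.03 TPM, CCR2 at no more than 0.38 TPM, CXCR6 at no more than 0.20 TPM and CX3CR1 at no more than 0.12 TPM. These are named as receptors of the 8 chemokines, after their values were seen. Whether values this low differ between the groups was not detectable here.
CCR1, which binds CCL5 and CCL7 as well as CCL3, was the most abundant receptor. Its TPM was 16.0, 15.1 and 12.3 in the control libraries and 8.26, 7.83 and 7.69 after rutaecarpine, so the groups were apart. It fell by 0.78 on the log2 scale (standard error 0.15, adjusted p = 0.0196 by limma), and of the 6 fits with a library left out it passed in 1, without control replicate 3, while the adjusted p was 0.0806 to 0.0994 in the others. CCR10, the receptor of CCL27 and CCL28, had a mean of 4.97 ± 0.48 TPM with DMSO and 4.77 ± 0.97 TPM with rutaecarpine (SD, n = 3). CCR7, the receptor of CCL19 and CCL21, was at 1.79, 2.43 and 0.59 TPM and then at 3.40, 1.82 and 2.96 TPM, with an adjusted p of 0.344 by limma.
Among the 5 atypical receptors, which bind chemokines without G protein signalling, ACKR3 and CCRL2 were tested and neither passed. ACKR3, the other receptor of CXCL12, had a TPM of 3.08, 2.70 and 3.26 in the control libraries and 1.79, 2.21 and 0.85 after rutaecarpine. Its groups did not overlap, and the log2 fold change of -0.65 had a standard error of 0.24 and an adjusted p of 0.151 by limma. Without rutaecarpine replicate 3 the log2 fold change was -0.42, and with library weights the gene passed (adjusted p = 0.0463 by limma).

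**Figure D3:**
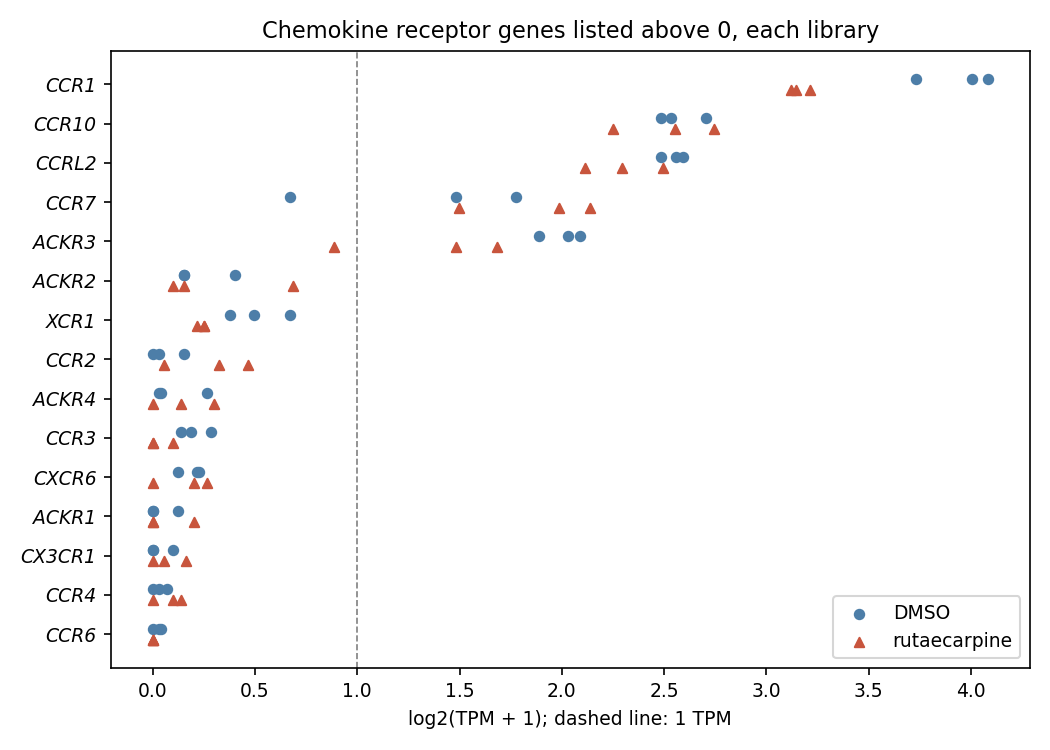
Level of the 15 signalling and atypical receptor genes that were listed above 0 in at least 1 library, as log2(TPM + 1) (horizontal axis), with blue circles for the control libraries and red triangles for the rutaecarpine libraries. CCR1, CCR10, CCRL2, CCR7 and ACKR3 are the genes with libraries to the right of the dashed line at 1 TPM, and the rutaecarpine points of CCR1 (7.69 to 8.26 TPM) lie to the left of its control points (12.3 to 16.0 TPM).

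All 6 genes that shed or trim chemokines, or control that step, were expressed, and 1 of the 6 passed, by rising, against 4.60% of all genes tested. TIMP3, an inhibitor of ADAM17, rose from 143 ± 22.4 to 220 ± 17.9 TPM (SD, n = 3), a log2 fold change of 0.63 with an adjusted p of 0.0294 by limma. It passed without control replicate 3 but in none of the fits without any other library, where the adjusted p was 0.0546 to 0.124. ADAM17 itself had a TPM of 23.7, 23.7 and 10.3 in the control libraries and 33.5, 34.1 and 39.6 after rutaecarpine. Its log2 fold change of 0.95 did not pass (adjusted p = 0.112 by limma), but one of 0.57 did without control replicate 3 (adjusted p = 0.0092). ADAM10 was at 33.6 TPM in that library against 87.7 to 134 TPM in the other 5. DPP4, a peptidase that trims the amino end of CXCL12 and CCL5, had 36.6, 36.0 and 26.6 TPM in the control libraries and 25.4, 18.4 and 25.9 TPM after rutaecarpine. Its log2 fold change was -0.49 with an adjusted p of 0.157 by limma, and -0.64 with an adjusted p of 0.0264 without control replicate 3.

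Of the 15 genes for signalling below chemokine receptors, 14 were tested, of which 1 rose, 2 fell and 11 did not pass, against 4.60% and 4.68% of all genes tested that rose and fell. PREX1, an exchange factor for Rac, rose from 35.0 ± 5.07 to 60.7 ± 7.34 TPM (SD, n = 3), a log2 fold change of 0.78 with an adjusted p of 0.019 by limma that became 0.0923 without rutaecarpine replicate 1 and 0.0965 without replicate 3. GNAI2, an inhibitory G protein subunit, fell from 475 ± 11.5 to 383 ± 20.6 TPM (log2 fold change -0.31, adjusted p = 0.0421 by limma). ARRB2, an arrestin that ends receptor signalling, fell from 56.9 ± 2.47 to 40.4 ± 5.13 TPM (log2 fold change -0.49, adjusted p = 0.0409 by limma). GNAI2 passed in 1 of the 6 fits that left out a library, that without control replicate 3, and ARRB2 in 2 of them, those without control replicate 3 and without rutaecarpine replicate 1. RAC2, a GTPase known from blood cells, was at 424 to 518 TPM across the libraries, above RAC1 at 154 to 180 TPM.
Over the 28 tested genes of these lists, 2 rose, 3 fell and 23 did not pass by limma, where 4.60% of all genes tested rose and 4.68% fell. An unadjusted p under 0.05 was found for 14 of them and for 24.4% of all genes tested. Their median log2 fold change was near 0 (0.0017), against 0.08 over all genes tested. None of the 28 was a DEG and the widest log2 fold change was 0.95, where the background was 2.01% up-regulated and 1.50% down-regulated. The groups did not overlap for 14 of the 28, against 33.3% of all genes tested. Without control replicate 3, 9 of the 28 passed, as did 18.5% of all genes tested. Without rutaecarpine replicate 3, 0 passed by limma and 11 had an unadjusted p under 0.05, against 3.75% and 16.7% of all genes tested.

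**Figure D4:**
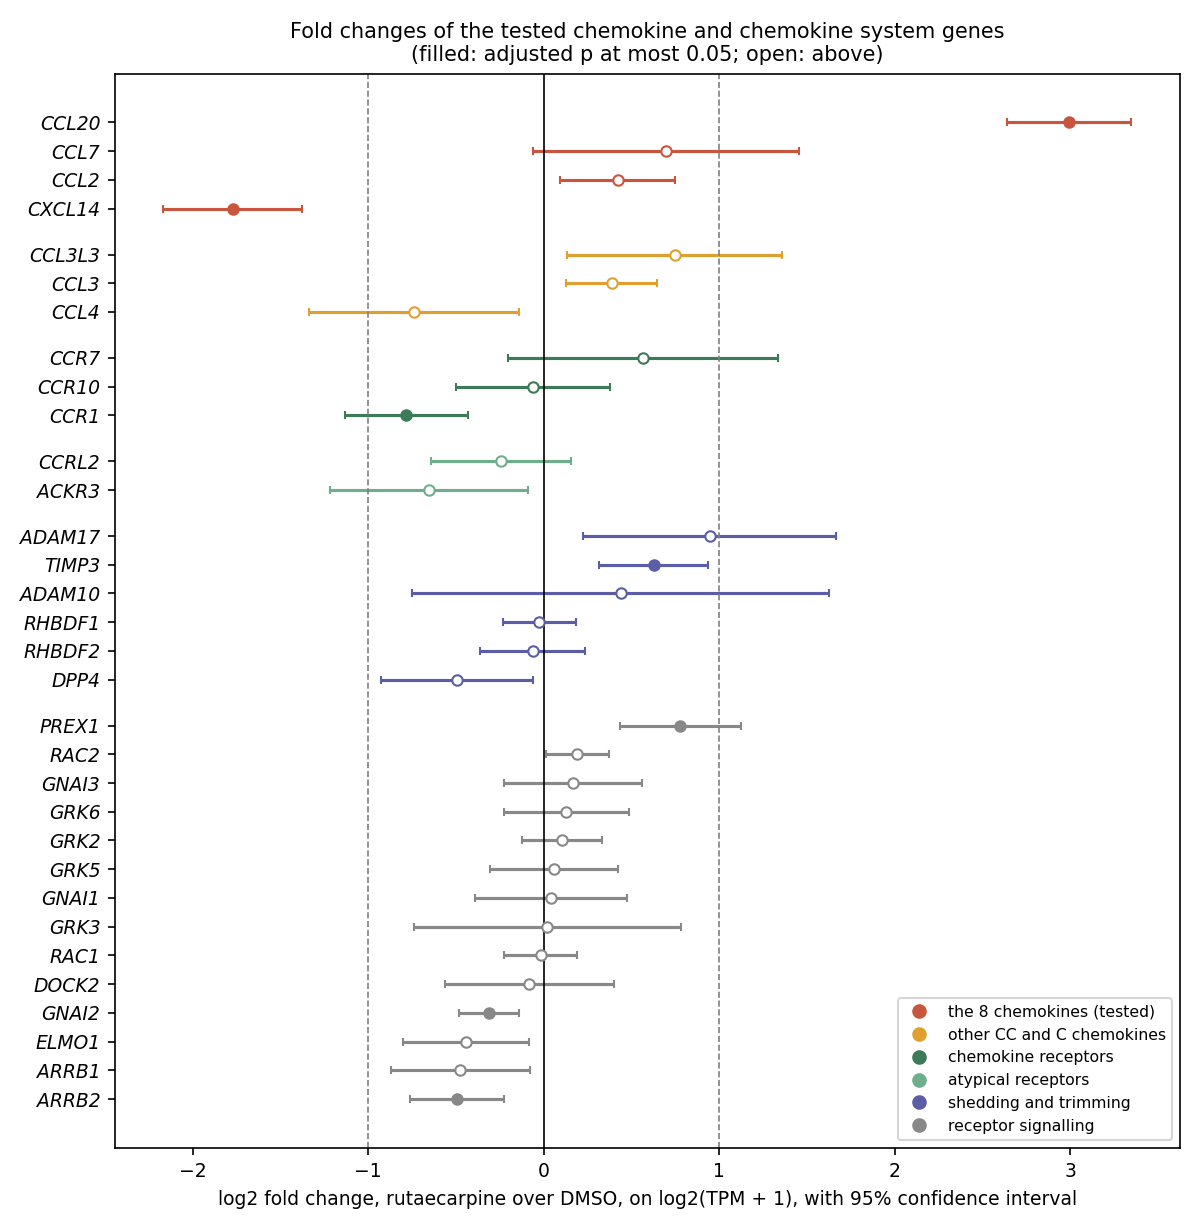
Log2 fold change of rutaecarpine over control on the log2(TPM + 1) scale (horizontal axis) with 95% confidence intervals from limma for the 4 tested chemokines (top) and the 28 tested genes of the related lists, coloured by list. Filled points have an adjusted p of at most 0.05 and dashed lines mark -1 and 1, and only the points of CCL20 (2.99) and CXCL14 (-1.77) lie outside them.

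The genes whose levels followed those of CCL20 and CXCL14 most closely over the 6 libraries were found by Pearson's r on log2(TPM + 1). These r values are descriptions, since all points share the same 6 libraries and most of their spread is the difference between the groups. Of 14373 other genes tested, 95 had an r above 0.99 with CCL20 and 58 with CXCL14. Nearest to CCL20 were IGFBP1, a binding protein of insulin-like growth factors (r = 0.9997), RHOB, a small GTPase (r = 0.9985), and IL1B, an inflammatory cytokine (r = 0.9982). IGFBP1 had a TPM of 59.4, 57.4 and 42.4 in the control libraries and 764, 877 and 853 after rutaecarpine. Like CCL20 it was lowest in control replicate 3 and highest in rutaecarpine replicate 2. Selection by r over these libraries favours such a match, so it is no further likeness. RHOB went from between 7.82 and 8.77 TPM to between 14.4 and 14.7 TPM, so its r is close to that of IL1B although its change is far smaller. IL1B was at 173 to 213 TPM in the control libraries and 6308 to 6915 TPM after rutaecarpine.
Nearest to CXCL14 were GAS6, a ligand of the TAM receptor kinases (r = 0.9992), OLFML3, a secreted matrix protein (r = 0.9991), and the tetraspanin TSPAN17 (r = 0.9981). GAS6 was at 33.7, 34.0 and 36.3 TPM in the control libraries and 20.1, 20.3 and 21.8 TPM after rutaecarpine. Its highest values were in replicate 3 of each group, as for CXCL14, a match that selection by r favours too. TSPAN17 moved little, from between 48.0 and 49.3 TPM to between 42.3 and 43.1 TPM, and did not pass (adjusted p = 0.222 by limma).

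**Figure D5:**
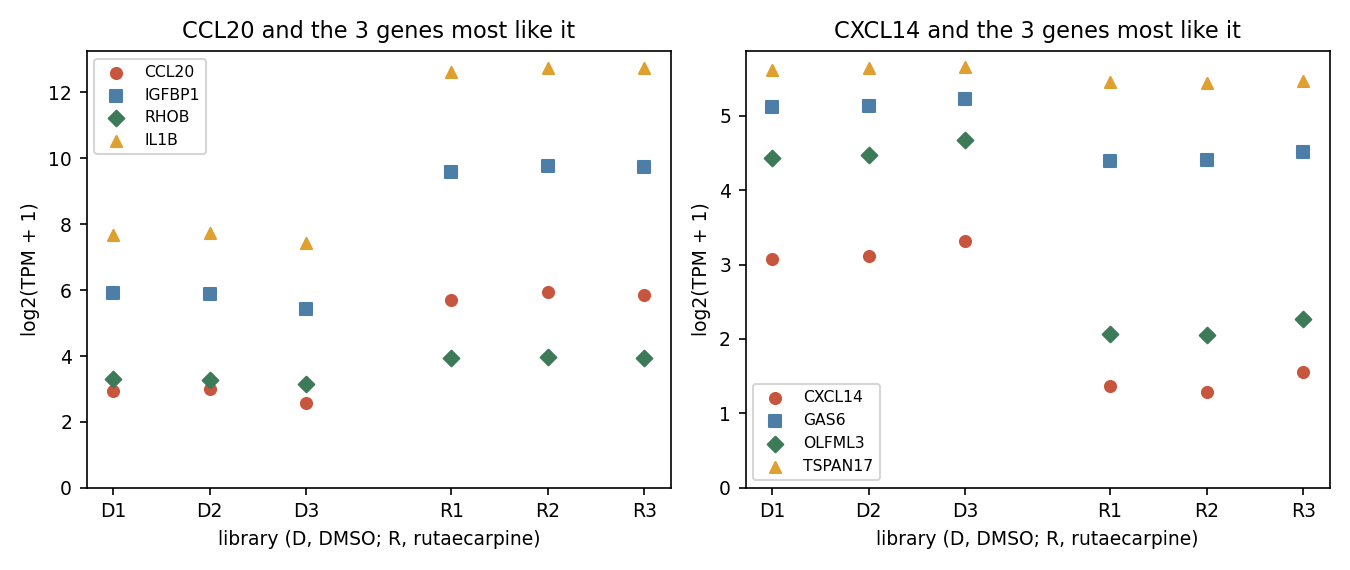
Level on log2(TPM + 1) (vertical axes) of CCL20 (left) and CXCL14 (right) and of the 3 genes most correlated with each, in control libraries 1 to 3 (D) and rutaecarpine libraries 1 to 3 (R). IGFBP1, IL1B and, by a smaller step (0.72), RHOB lie higher with CCL20. OLFML3, GAS6 (-0.71) and, by the smallest step (-0.19, which did not pass), TSPAN17 lie lower with CXCL14.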

How the data were processed

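RNA-Seq of U87 cells was analysed from the gene table that the authors deposited, which holds 6 columns of TPM made with RSEM, 1 per library. Per the submitters' processing notes the build was GRCh38.p13. The notes also name DESeq2 and edgeR, and the aligner and annotation release are not given in the sources used here. All columns were matched to samples by their labels, and 0 were left over. TPM keeps no read depth, so count models were not used.

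Genes that reached 1 TPM in 3 or more libraries were compared on the log2(TPM + 1) scale in a single fit over all of them with limma 3.58.1 in R 4.3.3 (mean-variance trend, two-sided, Benjamini-Hochberg adjustment). Positions came from GENCODE release 29 and names of unnamed rows from a table of Ensembl identifiers. Named genes were the 8 chemokines, genes of the fixed lists (other chemokines, receptors, atypical receptors, shedding and trimming, receptor signalling) that were DEGs or reached a mean of 1 TPM, and the 3 genes most correlated with each DEG. A few list genes under 1 TPM were also named, after their values were seen. The members and lists were chosen with earlier results of these data known, and the motifs after the promoters had been seen. The test was checked on simulated data with independent noise, no outlying library and only log2 fold changes well above 1. That check does not cover smaller changes or calls that rest on control replicate 3. Results for 1 receptor are not reported here.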

Additional observations from a re-analysis of the deposited data

How the results depend on the processing

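Across 13 other settings, CCL20 and CXCL14 were DEGs in each, with log2 fold changes of 2.83 to 3.17 and of -2.23 to -1.69. The settings were 6 fits that each left out a library and 7 that changed the scaling, the filter, the pseudocount, the variance trend, the library weights or the replicate block. The number of DEGs among the 8 chemokines was 2 in every setting but that with library weights, where CCL7 made it 3 (log2 fold change 1.05, adjusted p = 0.0127 by limma). CCL7 entered the test through the group in which it was higher. These weights were lowest for control replicate 3 (0.12) and rutaecarpine replicate 2 (0.61), the libraries in which its groups overlapped. CCL2 passed in 2 of the 13 settings, without control replicate 3 and with library weights (adjusted p = 0.0015), and elsewhere did not. With no filter, all 8 chemokines were tested and 2 passed.

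None of the related genes was a DEG in any setting. The number that passed was 5 of 28 at first (9.29% of all genes tested passed), 0 by limma with the replicate block (2.98%), where 9 had an unadjusted p under 0.05, 2 without the trend (8.43%), 1 of 51 with no filter (3.04%), 13 with library weights (27.6%) and between 0 and 9 when a library was left out (3.75 to 18.5%). The share of all genes that passed thus moved with the settings too. CCR1 passed in 7 of the 13 settings, PREX1 in 9, TIMP3 and ARRB2 in 5 each and GNAI2 in 4. The replicate numbers are shared by the groups, and the labels do not say whether they pair the libraries. Deviations of same-numbered libraries correlated at 0.12, -0.27 and -0.22 over 14377 genes. With 3 libraries per group, these values cannot settle whether the libraries are paired. With the replicate block there were 2 DEGs among the chemokines and 0 among the related genes. Centring the libraries moved the median log2 fold change of all genes from 0.08 to -0.01. Unknown depth limits what can be said of genes under 1 TPM, which include CCL5, CXCL16 and CX3CL1.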
